A study of Mus musculus with 12 samples.

Results

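The transcripts described here were raised by a Lats kinase inhibitor in the liver and in the heart of the same mice. They were chosen by their measured levels: of the 13660 transcripts under 12000 nt that averaged at least 1 CPM (the counts-per-million scale, the reads of a transcript relative to all assigned reads of its library) in the treated livers and in the treated hearts, 133 had a lowest treated value at least 25% above the highest control value in both organs. That was 0.974% of the transcripts that could have passed, out of 51884 in the table. Because treated and control levels selected these transcripts, the changes with treatment are a description, and calls of a fit to those same values are counted beside their background without being read as support. The order of the organs was not part of the rule and was tested. The rule did use the levels in each organ, so the values of the organ comparison are not independent of it.

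The mice were 6 Swiss Webster animals of 6 to 8 weeks. For 3 of them the labels name LKI-2 as the agent, the compound called TDI-011536 in the study, given intraperitoneally at 200 mg/kg, with liver and heart collected after 4 hours. The other 3 were controls, for which the labels list no agent. The general treatment text of the series nonetheless speaks of the injection for every animal. The study describes injecting the vehicle Kolliphor HS 15 into the control animals of its dosing experiments. Its main text does not name the vehicle again for the sequenced mice. Each mouse gave 1 liver and 1 heart homogenate, so there were 12 libraries in 4 groups of 3 separate mice. In whole-organ RNA, more cells of a type and more RNA per cell cannot be told apart.

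Lats kinases are the last kinases of the Hippo pathway. When active they phosphorylate the coactivators Yap and Taz, which are then held in the cytoplasm and degraded. When the kinases are inhibited, unphosphorylated Yap and Taz enter the nucleus and act with Tead DNA-binding proteins on target genes, many of them linked to cell growth, the cytoskeleton and the matrix around cells. The adult mammalian heart renews its muscle cells very little, whereas the liver regrows after injury, and both organs keep Yap restrained by phosphorylation.

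Transcripts are named by their UCSC identifiers, which no table used here pairs with gene symbols. The targets of Yap, the marker genes of liver and heart and those of other cell types could therefore not be looked up by name, and the organ labels were not checked against them. The separation of the organs in these transcripts themselves is given further on.

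Library depth ranged from 12618288 to 31243782 assigned reads, and the shallowest library was the heart of treated mouse 3. Values in CPM depend on what else a library holds. TMM scaling, which aligns the bulk of the transcripts between libraries, added 0.30 on the log2 scale (1.23 times) to the difference between treated and control mice in liver and 0.05 (1.03 times) in heart. Read on the CPM scale, 133 transcripts were raised and 206 lowered by the same rule in both organs, so raised ones were 39.2% of the total. With TMM factors the rule found 204 raised and 112 lowered, or 64.6% raised, so the balance between directions turned with the scaling.

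Of the 14509 transcripts that met the length and level parts with the groups exchanged, the 206 lowered ones made up 1.42%. When the 6 mice were put into the 18 other pairs of groups of 3, each mixing treated and control animals, the rule found 0 to 9 transcripts, with a median of 5. The 133 raised transcripts thus outnumbered the count from any of the mixed groupings. These groupings reuse the same 12 libraries, so the counts are a description of this set of mice.

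The rule has an edge where the lowest treated value is 25% above the highest control value. Just inside it stood uc009mvv.1, with a lowest treated value 1.252 times the highest control value in liver and 1.62 times in heart, then uc007znj.2, with 1.258 and 1.32 times, and uc012fsh.1, with 6.199 and 1.26 times. Just outside stood uc007nks.1 (1.25002 times in liver, 1.246 in heart), uc007gkf.1 (1.69 and 1.246) and uc008rdy.1 (1.243 and 1.67). A further 38 transcripts met every part of the rule except the floor of 1 CPM.

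A few members went from no reads, or nearly none, to a clear signal in all treated libraries. uc008fxh.2 (2687 nt) had 0 reads in all 3 control livers and 12, 1.61 and 8.78 CPM in the treated livers. In the hearts it had 0 reads in all 3 controls and 1.35, 1.56 and 1.44 CPM in the treated animals. Against a floor of 3 reads over the control group, this transcript was at least 196-fold higher in treated livers and at least 29.4-fold higher in treated hearts. The treated livers of this transcript were spread widely, whereas the treated hearts lay close together. Its counts were not whole numbers in every library, and the part of reads divided with other transcripts was not tested.

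uc011wqw.1 (7253 nt) also had no read that rounded to 1 in any control library. It reached 1.96, 2.41 and 2.31 CPM in the treated livers and 3.17, 9.11 and 15.7 CPM in the treated hearts, at least 60.8-fold and at least 173-fold above the same floor. Here the heart held the higher treated values, and every treated heart exceeded every treated liver. The counts of uc011wqw.1 were not whole numbers in every library either. uc007cxj.2 (1330 nt) had 0.263, 0.198 and 0.366 CPM in control livers and 12.6, 6.88 and 6.09 CPM in treated livers, a ratio of means of 30.9. The control hearts held none of its reads and the treated hearts 1.12, 1.56 and 2.46 CPM, at least 32.9-fold more. All of its counts were whole numbers, so no read of this transcript had been divided among several transcripts by the estimation.

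uc007rrs.3 (5826 nt) combined a high level with a large ratio. Its control livers had 13.8, 8.53 and 12.2 CPM and its treated livers 141, 203 and 198 CPM, with a ratio of means of 15.7. The control hearts had 1.90, 2.86 and 5.45 CPM and the treated hearts 16, 26.5 and 121 CPM, with a ratio of 16. The ratios of the organs were alike, but the heart value leaned on treated mouse 3, which stood at 121 CPM against 16 and 26.5 CPM in the others.

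uc011xbr.1 (2402 nt) was the member with the most reads in treated hearts. It rose from 52.9, 40.4 and 60.8 CPM in control hearts to 1019, 1089 and 840 CPM in treated hearts, a ratio of means of 19.1. In liver it was far lower, at 3.38, 3.93 and 2.73 CPM in controls and 63.4, 26.7 and 46.1 CPM after treatment, a ratio of 13.6. Its counts were whole numbers too. The 3 treated hearts were within a narrow band, while the liver of treated mouse 2 was well below those of the other treated mice.

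**Figure D1:**
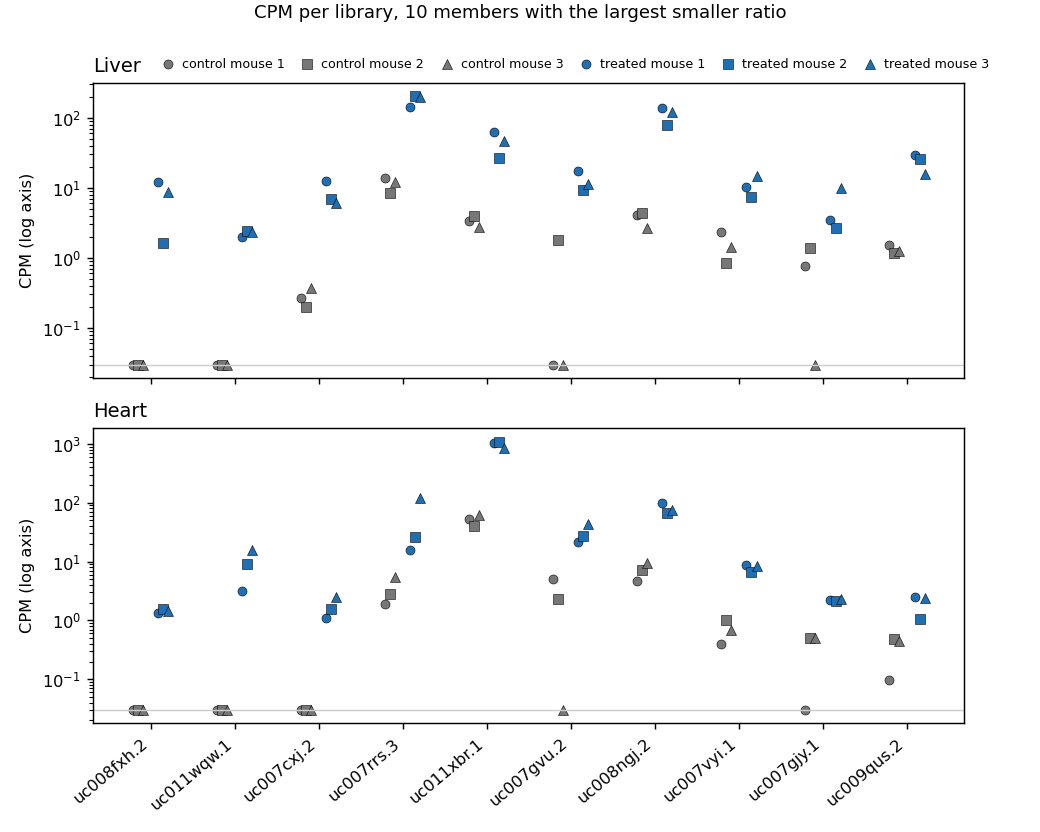
CPM on a log axis in each library for members with the largest smaller-of-the-organs ratio, with 3 control (grey) and 3 treated (blue) mice per organ, a marker shape per mouse number, and values under 0.03 drawn at the grey line at 0.03. The treated points lie above all control points in each organ by the rule that chose them, and the heart of treated mouse 3 stands high for uc007rrs.3 (121 CPM) and uc011wqw.1 (15.7 CPM).

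uc008ngj.2 (2419 nt) was low in the controls of both organs and high in both after treatment. In liver its values were 4.03, 4.40 and 2.63 CPM in controls and 136, 78.0 and 122.7 CPM in treated mice, and in heart 4.74, 7.14 and 9.59 CPM and 100.2, 65.9 and 73.8 CPM. The ratios of means were 30.4 in liver and 11.2 in heart. uc007vyi.1 (1873 nt) was low throughout, at 2.31, 0.850 and 1.41 CPM in control livers, 10.3, 7.43 and 14.8 CPM in treated livers, 0.403, 1.001 and 0.686 CPM in control hearts and 8.65, 6.58 and 8.31 CPM in treated hearts. For this transcript the ratio was larger in heart (11.3) than in liver (7.12). uc009qus.2 (11719 nt), the longest member, had 1.51, 1.19 and 1.26 CPM in control livers and 29.6, 25.9 and 15.8 CPM in treated livers. The hearts held much less of it, with 0.0991, 0.487 and 0.448 CPM in controls and 2.50, 1.04 and 2.38 CPM in treated mice. The ratio was 18.0 in liver and 5.73 in heart.

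For uc007gvu.2 and uc007gjy.1 the control values jumped between 0 and a clear signal, so their ratios are loosely fixed. uc007gvu.2 had 0, 55 and 0 estimated reads in the 3 control livers and 102, 47 and 0 in the control hearts, against 9.43 to 17.4 CPM in treated livers and 21.2 to 43.6 CPM in treated hearts. Its ratios of means were 21.1 and 12.54. uc007gjy.1 had 21, 42 and 0 reads in control livers and 0, 10 and 10 in control hearts, and ratios of 7.46 and 6.56. Neither transcript had whole-number counts in every library, and the part of reads divided with other transcripts was not tested.

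Over the whole set, the ratio of group means was over 2 in both organs for 95 of the 133 transcripts, over 4 in both for 28, and over 10 in both for 7. A further 9 were over 2 in neither organ. The median ratio was 3.66 in liver and 2.76 in heart, taking the lower bound for the 5 transcripts with no control reads in liver and the 3 with none in heart. The liver ratio was the larger for 92 transcripts and the heart ratio for 41. It was more than 2 times larger in liver for 35 and more than 2 times larger in heart for 5, while 45 had ratios within 25% of each other. Larger ratios in liver were thus common in the set. The same counts were not made over all transcripts, and whether the responses of the organs differed was not tested.

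Among the 127 transcripts with control reads in both organs, the interquartile range of the ratio was 2.58 to 6.84 in liver and 2.06 to 4.09 in heart. Across these transcripts the liver and heart ratios had a Spearman's rho of 0.479, as a description over points that come from the same 6 mice and passed the same threshold in both organs. In the 31 of them with whole-number counts the rho was 0.271. Counted over the whole set, 61 transcripts had a ratio over 4 in liver, and 28 of them were over 4 in heart too. Of the 36 transcripts over 4 in heart, the same 28 were over 4 in liver. A ratio over 4 in liver thus often came with a smaller one in heart, whereas most ratios over 4 in heart came with one over 4 in liver.

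**Figure D2:**
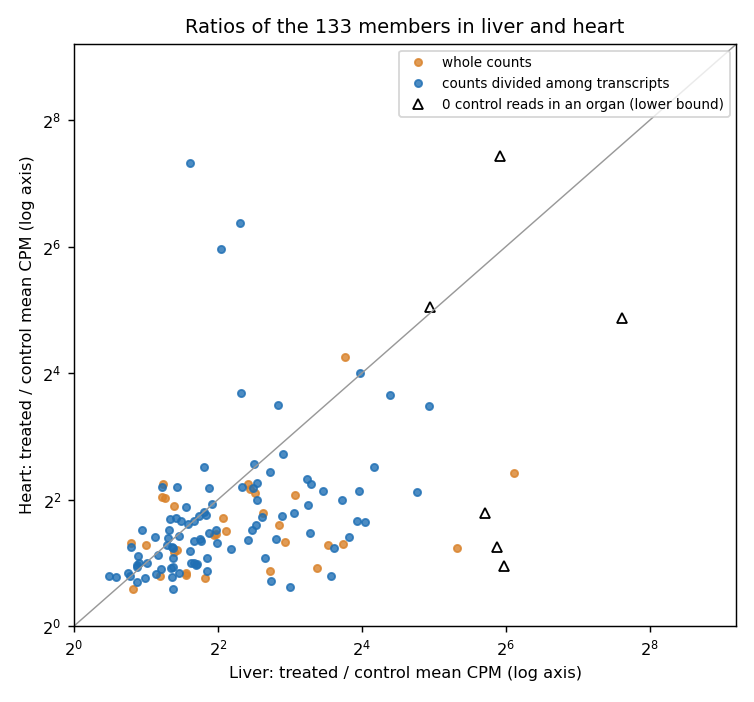
Ratio of the treated to the control mean CPM in liver (horizontal, log axis) against the same ratio in heart (vertical, log axis), 1 point per transcript, with triangles for lower bounds where an organ had no control reads. More points lie on the liver side of the line of equal ratios, with 92 of all 133 transcripts larger in liver, and uc009mhc.2 is far out on it at 40.1 in liver and 2.37 in heart.

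uc009mhc.2 (1576 nt, whole-number counts) showed the difference in size most plainly among the abundant members. Control livers had 30.9, 24.7 and 24.4 CPM and treated livers 1131, 1001 and 1075 CPM. In the hearts the values were 15.5, 7.55 and 14.1 CPM in controls and 19.8, 41.3 and 26.6 CPM in treated mice. The treated livers were tightly grouped and the ratio of means was 40.1, against 2.37 in heart.

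Some members had the far larger ratio in heart. uc012dgs.2 (4068 nt), a member singled out after its values were seen, had 0.576, 0.655 and 0.321 CPM in control hearts, or 6 to 13 reads, and 25.1, 18.7 and 52.9 CPM in treated hearts, a ratio of 62.3. Its livers had 1.198, 3.96 and 0.930 CPM in controls and 11.1, 7.97 and 6.12 CPM after treatment, a ratio of 4.14. uc009cfm.2 (6640 nt), singled out in the same way, reached 168 CPM in the heart of treated mouse 3 but 8.68 and 8.66 CPM in the other treated hearts, so its heart ratio of 82.8 came mainly from 1 library.

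**Figure D3:**
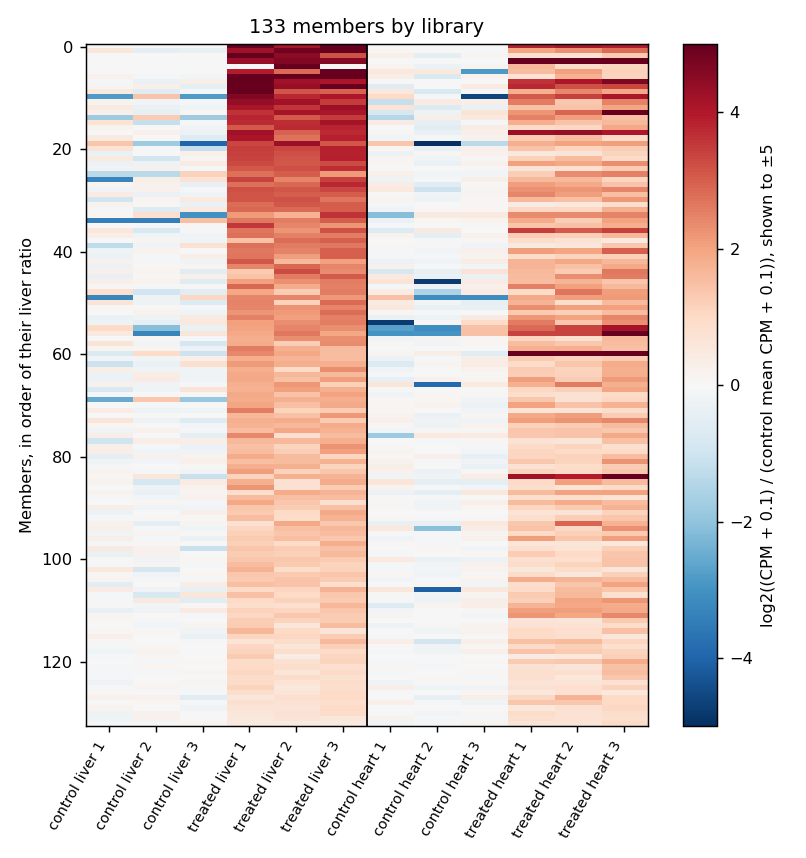
Heat map of the 133 transcripts (rows, in order of their liver ratio) in the 12 libraries (columns), coloured by log2 of CPM + 0.1 over the control mean CPM + 0.1 of the same organ, with colours ending at 5 on either side. Treated columns are raised in both organs by the rule, with a median ratio of 3.66 in liver and 2.76 in heart.

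A fit across all transcripts (edgeR's quasi-likelihood test with Benjamini-Hochberg adjustment, threshold 0.05) gives the same contrast on the TMM scale with its spread between mice. In liver, where 6.09% of the 20628 tested transcripts were called higher in treated mice, 106 of the 132 tested members were called. In heart, where 0.404% of 22281 were called higher, 29 of 132 members were called, and none was called lower in either organ. The choice of the members by these values fixes the direction, so nothing is read from the shares. The median log2 difference was 2.18 in liver, with quartiles of 1.67 and 3.16, and 1.495 in heart, with quartiles of 1.10 and 2.10, against -0.02 and -0.03 over all transcripts. Of the 131 members tested in both organs, 27 were called in both, where 0.189% of the 17422 transcripts tested in both were so called. A further 79 were called in liver alone (6.31% of all), 2 in heart alone (0.258%) and 23 in neither (93.2%). With DESeq2's Wald test 124 members were called in liver and 116 in heart, so the small number in heart depended on the tool. The share of all transcripts that DESeq2 called was not counted, so nothing about the members is read from these numbers.

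The 4 most abundant members took 60.7% of the summed CPM of the set in control livers and 47.8% in treated livers, against 28.6% and 26.9% in hearts, so the liver total rested on fewer transcripts. uc008vxy.1 (3018 nt) had 890, 801 and 763 CPM in control livers and 1663, 2106 and 1948 CPM in treated livers, and 15.6, 13.8 and 12.7 CPM in control hearts against 64.4, 54.1 and 74.2 CPM in treated hearts. The ratio of means was 2.33 in liver and 4.58 in heart. uc009mvv.1 (556 nt, whole-number counts), the shortest member, had 1071, 1049 and 621 CPM in control livers, 1341, 1617 and 1801 CPM in treated livers, 72.5, 52.9 and 88.4 CPM in control hearts and 148, 240.2 and 144 CPM in treated hearts, with ratios of 1.74 and 2.49. It was also the member closest to the threshold in liver. Per length it was the most abundant member, with a mean of 2235 TPM (the deposited transcripts-per-million scale, which takes length into account) over the 12 libraries.

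uc007gnr.1 (4681 nt) was abundant in heart only. Its hearts held 286, 301 and 328 CPM in controls and 538, 542 and 883 CPM in treated mice, and its livers 13.5, 13.1 and 15.1 CPM and 29.0, 21.5 and 27.1 CPM. The ratios, 2.14 in heart and 1.86 in liver, were close.

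Summed over the 133 transcripts, control livers had 2991 to 3758 CPM (mean 3425 ± 394 SD, n = 3) and treated livers 9998 to 11303 CPM (10529 ± 686, n = 3). Control hearts had 3449 to 3835 CPM (3659 ± 195, n = 3) and treated hearts 8588 to 10158 CPM (9121 ± 898, n = 3). The set thus took a similar portion of the reads in both organs before treatment and after it. On the CPM scale the median member was lower in liver, at 4.48 to 4.77 CPM in control livers against 8.47 to 11.5 CPM in control hearts, and 15.1 to 19.5 CPM in treated livers against 28.4 to 34.3 CPM in treated hearts. This direction turned with the scaling in treated mice, where the median log2 difference of liver over heart was -0.52 with library totals alone and 0.52 with TMM factors.

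**Figure D4:**
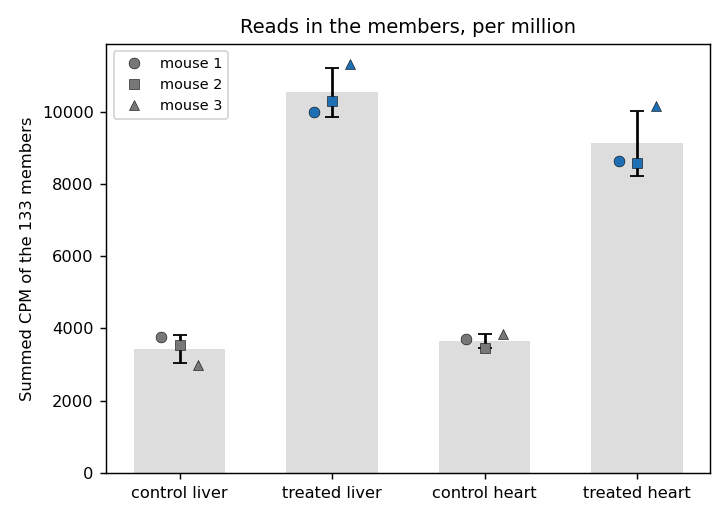
Summed CPM of the 133 transcripts in each library (points) with the mean of each group of 3 (bars from 0) and its SD. Treated livers sit between 9998 and 11303 CPM and treated hearts between 8588 and 10158 CPM, above 2991 to 3758 CPM and 3449 to 3835 CPM in the controls, as the choice of the transcripts requires.

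Treated mice did not rank alike. In liver, treated mouse 3 had the highest value of 62 members, mouse 1 of 46 and mouse 2 of 25, and mouse 2 had the lowest value of 74. In heart, treated mouse 3 had the highest value of 79 members, against 27 for each of the others. The same mouse was highest in liver and heart for 48 members, of which mouse 3 accounted for 34. These ranks were not counted over all transcripts, and whether the organs of a mouse ranked together was not tested, so they are a description. The heart of treated mouse 3 was also the shallowest library, and the part of depth in these ranks was not tested. With treated mouse 2 left out of both organs the rule found 246 transcripts, including 130 of the 133. Leaving out a mouse can only ease the comparison of the lowest treated with the highest control value.

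Liver and heart were compared within the control mice and within the treated mice by the same edgeR test, with 3 libraries against 3. The transcripts tested were not limited by the level part of the rule, so the members and all transcripts are unlike sets. In control mice 27.4% of the 23202 transcripts tested were higher in liver and 27.4% higher in heart. Of the 128 members tested there, 31 (24.2%) were higher in liver and 46 (35.9%) higher in heart, with a median log2 difference (liver minus heart) of -0.32 against 0.01 over all transcripts. The 5 members not tested had too few reads in control mice. In treated mice 24.0% of 22482 transcripts were higher in liver and 25.6% in heart, whereas of the 133 members 57 (42.9%) were higher in liver and 33 (24.8%) in heart, with a median of 0.52 against -0.06.

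The counts of the organ comparison depended on scaling, since TMM factors added 0.87 (1.83 times) to the log2 difference of liver over heart in control mice and 1.03 (2.04 times) in treated mice. With library totals alone, 20 of the 128 members (15.6%) were higher in liver and 67 (52.3%) in heart in control mice, against 15.9% and 43.8% of all transcripts tested. In treated mice 26 of 133 (19.5%) were higher in liver and 58 (43.6%) in heart, against 13.6% and 43.5% of all. On that scale members higher in heart outnumbered those higher in liver before and after treatment. The median log2 difference of the members was -1.19 in control mice and -0.52 in treated mice, against -0.86 and -1.08 over all transcripts.

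The organs stayed apart for many members after treatment. Of the 128 members tested in both control and treated mice, 32 (25%) were higher in heart in both and 30 (23.4%) higher in liver in both, against 21.5% and 20.9% of the 21134 transcripts tested in both. The share in each class was near that background, which was not limited to transcripts that met the level part of the rule. The remaining 71 of the 133, including the 5 not tested in control mice, were in neither class. Among the 32 heart-higher transcripts the median ratio of treated to control was 3.23 in liver and 2.26 in heart, and the liver ratio was the larger for 22. Their median log2 difference of liver and heart went from -2.58 in control to -1.51 in treated mice. Among the 30 liver-higher transcripts the median ratio was 2.88 in liver and 3.15 in heart, and the median log2 difference went from 2.81 to 3.33. Among the 71 in neither class the median ratios were 4.94 and 2.87, with the larger in liver for 54.

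Calls also differed between control and treated mice. Of the 128 members, 23 (18.0%) went from no call in control mice to higher in liver in treated mice, against 3.57% of all transcripts tested in both, and 12 (9.38%) from higher in heart to no call, against 6.44%. In the other direction, 1 (0.781%) went from higher in liver to no call and 1 from no call to higher in heart, against 7.76% and 4.41% of all. Neither comparison called 27 members (21.1%), against 35.1% of all. The treated and control values that chose the members enter these shifts, so the shares are a description. The gap between organs, as the absolute log2 difference, was smaller in treated mice for 69 of 128 members and larger for 59, with medians of 1.32 in control and 1.23 in treated mice. On the TMM scale the gap between the organs thus narrowed for some members and widened for others in nearly equal numbers. These gaps were counted neither with library totals alone nor over all transcripts. With library totals alone the median log2 difference of the members was -1.19 in control mice and -0.52 in treated mice. The change from control to treated mice was not itself tested.

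Among members called higher in liver in both control and treated mice, the largest difference in control mice was that of uc007tgu.2 (3939 nt), whose control livers had 1.85, 2.59 and 0.760 CPM and whose control hearts held 1 read in all. Its log2 difference was 7.07 in control mice (SE 1.14, edgeR adjusted p = 0.00338), a value that depends on the prior count, and 2.03 in treated mice (SE 0.47, adjusted p = 0.013), with 3.89, 6.14 and 5.82 CPM in livers and 2.04, 1.75 and 4.35 CPM in hearts. It thus had a measurable level in every treated heart, with counts that were not whole numbers in every library. Its difference between treated and control mice was called in neither organ by edgeR (adjusted p = 0.0874 in heart and 0.0733 in liver). uc008vxy.1 kept a wide gap, at 6.74 in control (SE 0.16, adjusted p = 9.25e-06) and 5.93 in treated mice (SE 0.23, adjusted p = 1.95e-05).

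uc007atv.1 (4739 nt) had 199, 160.4 and 143 CPM in control livers and 14.8, 2.28 and 13.2 CPM in control hearts, then 349, 469.6 and 528 CPM in treated livers and 27.6, 21.0 and 49.97 CPM in treated hearts. Its gap was nearly the same before and after treatment, at 4.93 (SE 0.74, edgeR adjusted p = 0.00257) and 4.82 (SE 0.38, adjusted p = 0.000187). uc008iek.1 (3148 nt, whole-number counts) had 72.0, 81.1 and 80.8 CPM in control livers and 5.70, 5.06 and 5.63 CPM in control hearts, then 227, 148 and 259 CPM and 10.1, 13.1 and 14.6 CPM after treatment. The log2 difference was 4.71 (SE 0.10, adjusted p = 7.96e-06) and 5.09 (SE 0.26, adjusted p = 4.01e-05). For uc009mvv.1 it was 4.55 (SE 0.34, adjusted p = 0.000169) and 4.18 (SE 0.31, adjusted p = 0.000152). All of these liver and heart values were apart without overlap in control and in treated mice, except that the treated values of uc007tgu.2 overlapped.

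Among members called higher in heart in both, the widest gap in control mice belonged to uc007thr.2 (5433 nt), which had no reads in control livers and 27.3, 16.2 and 25.1 CPM in control hearts. After treatment it had 4.24, 2.14 and 0.799 CPM in livers, at least 62.6-fold above 3 reads over the control group, and 38.5, 37.7 and 56.0 CPM in hearts, 1.93 times the controls. The heart was still higher in treated mice, with a log2 difference of -3.16 (SE 0.61, edgeR adjusted p = 0.00655). The counts of uc007thr.2 were not whole numbers in every library. uc007ztw.1 (8104 nt, whole-number counts) had 0.376, 0.660 and 0.407 CPM in control livers, 2.08, 1.76 and 1.71 CPM in treated livers, 24.4, 25.3 and 26.1 CPM in control hearts and 60.3, 55.6 and 89.3 CPM in treated hearts. Its log2 difference was -4.83 in control (SE 0.27, adjusted p = 6.21e-05) and -4.17 in treated mice (SE 0.23, adjusted p = 5.27e-05).

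uc007pzx.1 (1859 nt) and uc007gko.1 (5018 nt) kept their organ difference through treatment. For uc007pzx.1 it was -4.05 in control (SE 0.15, edgeR adjusted p = 1.93e-05) and -3.89 in treated mice (SE 0.23, adjusted p = 6.2e-05), with ratios of treated to control of 2.03 in liver and 1.99 in heart. For uc007gko.1 it was -3.73 (SE 0.18, adjusted p = 3.85e-05) and -3.75 (SE 0.34, adjusted p = 0.000338), with ratios of 2.80 and 3.18.

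uc007axm.1 (4645 nt) moved closer to equal levels. Its control livers had 1.90, 2.49 and 2.95 CPM and its treated livers 27.4, 23.4 and 36.1 CPM, whereas its hearts had 52.7, 66.4 and 73.7 CPM and 93.6, 99.7 and 141 CPM. The ratio was 11.8 in liver and 1.73 in heart. The log2 difference of the organs was -3.85 in control mice (SE 0.22, edgeR adjusted p = 7.13e-05) and -0.91 in treated mice (SE 0.20, adjusted p = 0.00987). The direction of the difference was the same with library totals alone for all 10 transcripts named here for wide organ gaps. uc009qrl.2 also had no reads in control livers and was called higher in heart in control mice, but not in treated mice (adjusted p = 0.241 by edgeR).

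**Figure D5:**
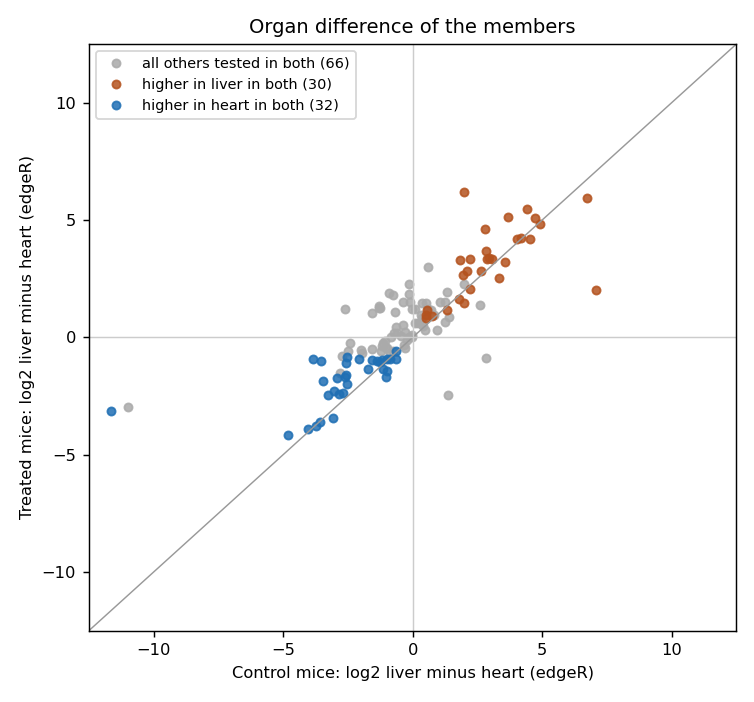
Log2 difference of liver and heart (TMM scale) in control mice (horizontal) against treated mice (vertical) for the 128 members tested in both, coloured by whether it passed the test in the same direction in both (30 higher in liver, 32 higher in heart). Most points keep their side of 0, and uc007pjw.1 (-1.29 and 1.32) and uc008bsg.3 (-1.30 and 1.24) were called in opposite directions with TMM factors.

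Of the 128 members, 2 (1.56%) were called in opposite organ order, against 0.241% of all transcripts tested in both. uc007pjw.1 had 11.05, 14.5 and 12.2 CPM in control livers and 55.4, 55.2 and 58.9 CPM in control hearts, against 109.6, 119.7 and 162 CPM in treated livers and 88.6, 95.2 and 136 CPM in treated hearts. Its log2 difference was -1.29 in control mice (SE 0.11, edgeR adjusted p = 0.000336) and 1.32 in treated mice (SE 0.20, adjusted p = 0.0027). uc008bsg.3 (1913 nt) had 11.6, 6.74 and 7.41 CPM in control livers and 61.7, 24.1 and 30.8 CPM in control hearts, against 145, 105 and 173 CPM in treated livers and 106, 104 and 155 CPM in treated hearts. The difference was -1.30 (SE 0.43, adjusted p = 0.0451) and 1.24 (SE 0.21, adjusted p = 0.00396). In the treated mice the CPM of livers and hearts overlapped for both transcripts. With library totals alone the log2 difference in treated mice was 0.29 for uc007pjw.1 (edgeR adjusted p = 0.339) and 0.21 for uc008bsg.3 (adjusted p = 0.509), so the call after treatment needed the TMM factors.

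Length and level, which the rule bounded, and the wholeness of counts, which it did not use, were set beside those of the other eligible transcripts as a description. Their median length was 3545 nt (quartiles 2406 and 4743) against 2887 nt (1815 and 4313) for the other 13527, and 2753 nt (1791 and 4259) for the 206 lowered ones. The median of the mean TPM over the 12 libraries was 6.29 against 5.59, and 2.68 for the lowered, means that include the treated libraries the rule selected on. Counts were whole numbers in all libraries for 32 members (24.1%), against 16.3% of the other eligible transcripts and 28.6% of the lowered. For the remaining members the reads were divided by the estimation among transcripts that share sequence, and the rule does not tell which transcript of a gene was raised.

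A total of 18 members stood within 5 rows of another member in the deposited table, in 9 pairs, and 3 pairs were in adjacent rows. Ratios within a pair were close in some, such as uc008pnl.2 and uc008pnn.1 (3.36 and 3.96 in liver, 2.60 and 2.48 in heart). In others they were far apart, such as uc008ngj.2 and uc008ngl.2 (30.4 and 3.58 in liver, 11.2 and 3.38 in heart). Whether the transcripts of a pair belong to 1 gene is not given by the tables used here, so 133 is a number of transcripts and not of genes.

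One member, uc009qrl.2, met the rule by estimates below 1 read. It had no reads in the control livers and 0, 194 and 0 reads in the treated livers, so that its liver ratio compared estimates close to 0. Its hearts had 15.7, 11.6 and 15.9 CPM in controls and 45.9, 26.9 and 30.4 CPM in treated mice, apart without overlap. Asking for at least 3 reads in each treated library left 132 transcripts, and this was the only one to drop out.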

How the data were processed

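RNA from liver and heart homogenates was sequenced from stranded mRNA libraries. The submitters' processing notes name Salmon 0.8.2, the build mm10 and DESeq2 1.20.0, and the deposited tables have the layout of Salmon output. The deposited values are estimated counts per transcript, not normalized, with deposited TPM beside them. Each file holds 2 tables one after the other, and the first was used. The second was close to it but not identical, with a median log2 difference of the members in liver of 2.17638 against 2.17653. Estimates divide reads among transcripts that share sequence, so a transcript's level can move with that of a partner; counts within 1e-06 of a whole number in all libraries were called whole.

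The 133 members and all lists were chosen with earlier results of these data known. Tests ran over all transcripts on rounded counts in edgeR 4.0.16 (R 4.3.3): filterByExpr with a minimum count of 10, TMM, quasi-likelihood test, Benjamini-Hochberg threshold 0.05, the SE being the absolute log2 difference over the square root of F. Checks used DESeq2 1.42.0. The script was tested on simulated data. Values of ± are SDs over separate mice, and a group without reads is bounded at 3 reads over the group. Depth limits precision through counting error, and any other part of depth was not tested.

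Transcripts were named by a rule: the 10 with the largest smaller-of-the-organs ratio, the 5 with the highest mean CPM, the 5 with the widest organ gap in control mice each way among those past the test in control and in treated mice, and the 3 nearest the threshold on each side. Any other transcript was named after its values were seen. Liver and heart with the same number came from the same mouse, yet deviations of such pairs from their group means correlated only at -0.00957 to 0.0232 over 26434 transcripts. Lists of Yap targets and other genes, and organ markers, were not analysed here, because the UCSC identifiers are not matched to symbols in the references used here, and no sequence is printed for the same reason.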

Additional observations from a re-analysis of the deposited data

Results flagged for a closer look

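For 8 members, liver and heart were in one order in each of the 3 control mice and in the opposite order in each of the 3 treated mice by CPM. The same count over all transcripts was not made, and the treated and control values that chose the members enter it, so it is a description. The difference between control and treated mice was not tested. The ratio of liver to heart mean CPM went from 0.223 in control to 1.22 in treated mice for uc007pjw.1 and from 0.221 to 1.16 for uc008bsg.3, the 2 transcripts called in opposite order by edgeR with TMM factors. It went from 0.515 to 1.40 for uc008ngj.2, from 0.544 to 1.14 for uc009nyw.2, from 0.489 to 1.76 for uc009oow.2 and from 0.490 to 2.38 for uc008gad.1. On the TMM scale these 4 had control log2 differences between -0.16 and -0.01, none past the test, and treated ones between 1.21 and 2.27, all past it.

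In the other direction, uc012dgs.2 went from 3.93 to 0.261 and uc011wqw.1 from 20.9 to 0.239, the latter with fewer than 1 read in every control library, so that its control ratio has no meaning as a level. By edgeR with TMM factors uc012dgs.2 was called higher in liver in control mice (adjusted p = 0.0194) and was not called in treated mice (adjusted p = 0.14). Groups of 3 were not examined for single outlying samples.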

How the results depend on the processing

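The number of transcripts raised in both organs moved with the ratio asked for, from 376 at 1 to 87 at 1.5 and 40 at 2. With treated and control exchanged, the rule counted lowered transcripts instead, of which there were 206. The number raised was 204 with TMM factors, 207 with DESeq2 size factors and 32 among whole counts. Without 1 mouse it ranged from 168 to 246, being 246 without treated mouse 2 and 214 without treated mouse 1, and without 1 library, an alternative added after the data were seen, from 142 to 181. Fewer libraries can only ease the comparison of the lowest treated with the highest control value, so apart from the level floor a rise was built in. The number of transcripts stayed within 1.5 times of 133 with other level floors (98 to 171), without the length limit (133), by TPM (121, of which 105 were members), in the second table (133), and with members in adjacent rows counted once (130).

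The median log2 difference was 1.86 in liver with library totals alone (added later) and 2.13 to 2.24 without 1 library, and 1.45 to 1.57 in heart without 1 library. With library totals alone the organ comparison gave 20 members higher in liver in control mice, and 26 in liver and 58 in heart in treated mice. Leaving out 1 mouse per group gave 23 to 25 in liver and 38 to 43 in heart in control mice, and 38 to 52 and 24 to 28 in treated mice. A replicate block for the mouse gave 24 and 41 members in control mice and 50 and 28 in treated mice. In the treated against control fits, where a number does not pair mice, the block left 15 members called in liver and 0 in heart (117 at an unadjusted p under 0.05 by edgeR, 116 adjusted by DESeq2 without the block). The shares of all transcripts called under these settings were not counted. For the treatment difference of single named transcripts, those called kept the call under 205 alternatives and lost it under 95, and those not called stayed so under 255 and gained a call under 21, with no reversal. Low reads limit the members near 1 CPM, and the cause of these shifts was not tested.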
